A study of Mus musculus with 67 samples.

Results

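Zscan4c, Zscan4d, Zscan4f, Zfp352, Tcstv1 and Tcstv3 are 6 genes of the mouse embryo known for a short burst of RNA at the 2-cell stage. They were taken as the rows of the deposited expression table with these symbols, and all 6 were found among its 26414 genes. RNA of single cells picked from C57BL/6 embryos was measured by SMART-seq2, a full-length RNA sequencing method for single cells, in 67 libraries. The embryos came from in vitro fertilization of oocytes of 6-week-old females with sperm of 10-week-old males. The 34 light libraries came from 2-cell embryos exposed to a full-spectrum lamp at 5000 lx for 6 h and returned to dark culture, and the 33 control libraries from embryos that stayed in the dark. Control and light libraries numbered 7 and 6 of 2-cell embryos, 6 and 8 of 4-cell embryos, 4 and 8 of 8-cell embryos, 13 and 6 of morulae and 3 and 6 of blastocysts. The labels give each library an embryo number while the methods describe picked cells, and no source ties libraries to mice or days of collection. The p-values therefore measure the spread between these libraries, which may be smaller than that between embryos.

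When the embryonic genome first becomes active in the mouse 2-cell embryo, a set of genes and retroviral repeats is transcribed for about one cell cycle and then silenced. The Zscan4 genes encode proteins with a SCAN domain and zinc fingers that are known for a role in keeping telomeres long in embryonic stem cells, where they are on in a small share of cells at a time. Tcstv1 and Tcstv3 belong to another multicopy family of the 2-cell stage, and Zfp352 encodes a zinc-finger protein. The transcription factor DUX and the proteins DPPA2 and DPPA4 are known activators of this programme, and TRIM28 and the chromatin assembly factor CHAF1 are known to hold it down.

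Zscan4c (chromosome 7, 11005745 to 11010547), Zscan4d (chromosome 7, 11161374 to 11166159) and Zscan4f (chromosome 7, 11397915 to 11402318) are neighbouring protein-coding copies in the mouse genome GRCm38. Zfp352 lies on chromosome 4 (90218820 to 90225702), and Tcstv1 (119893388 to 119894785) and Tcstv3 (120316878 to 120318178) lie on chromosome 13. The copies of Zscan4 cannot be told apart by every read. Of the 150-base stretches of the Zscan4c transcripts, 61.0% were also found letter for letter in a transcript of another gene, against 77.4% for Zscan4f and 13.0% for Zscan4d. The other genes that shared them were Zscan4 genes and pseudogenes and, for Zscan4c and Zscan4f, the predicted gene Gm45551. No such stretch was shared by Zfp352, Tcstv1 or Tcstv3, so the values of Zscan4c and Zscan4f are the least certain as to the copy of origin. The longest transcripts of Zscan4c and Zscan4d were identical in 97.1% of aligned columns.

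All 6 genes were high at the 2-cell stage and fell by the 4-cell stage. The sequence around the transcription start is shown for 4 of them, because the promoters used held no entry for Tcstv1 or Tcstv3. It runs from 250 bases before to 50 bases after the start and was taken from RefSeq (GRCm38.p6). Capitals mark TGATTNAAT, which is part of the site that DUX is known to bind, the TATA box letters TATAAA, and the repeated unit ACAACACAC of Zfp352. Both strands were searched, none of these matches overlapped another, and the motifs were chosen after the sequences had been read.
Zscan4c, chr7:11005495-11005794, plus strand: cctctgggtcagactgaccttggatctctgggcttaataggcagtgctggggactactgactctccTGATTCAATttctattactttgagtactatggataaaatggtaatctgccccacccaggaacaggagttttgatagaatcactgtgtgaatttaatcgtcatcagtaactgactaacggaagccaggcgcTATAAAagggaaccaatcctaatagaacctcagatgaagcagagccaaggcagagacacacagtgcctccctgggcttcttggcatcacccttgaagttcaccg
Zscan4d, chr7:11166099-11166398, minus strand: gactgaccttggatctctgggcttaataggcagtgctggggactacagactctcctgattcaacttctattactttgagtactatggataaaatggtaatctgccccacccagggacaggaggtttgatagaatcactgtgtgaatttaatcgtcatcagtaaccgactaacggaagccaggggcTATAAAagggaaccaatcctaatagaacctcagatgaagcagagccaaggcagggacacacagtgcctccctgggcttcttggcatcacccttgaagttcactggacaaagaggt
Zscan4f, chr7:11397665-11397964, plus strand: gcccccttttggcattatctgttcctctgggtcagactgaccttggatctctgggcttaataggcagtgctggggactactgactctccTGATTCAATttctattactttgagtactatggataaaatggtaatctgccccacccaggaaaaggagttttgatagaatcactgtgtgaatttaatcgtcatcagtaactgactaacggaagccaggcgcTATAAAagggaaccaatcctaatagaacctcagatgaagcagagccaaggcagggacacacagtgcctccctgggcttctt
Zfp352, chr4:90218570-90218869, plus strand: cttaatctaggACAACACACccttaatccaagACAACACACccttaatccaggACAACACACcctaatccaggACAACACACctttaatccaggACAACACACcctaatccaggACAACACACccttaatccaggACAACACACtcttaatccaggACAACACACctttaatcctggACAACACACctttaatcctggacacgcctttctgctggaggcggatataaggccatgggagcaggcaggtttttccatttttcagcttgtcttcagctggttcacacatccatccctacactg
Zscan4c and Zscan4d were identical in 90.4% of aligned columns of these stretches, Zscan4c and Zscan4f in 85.1%, and Zscan4d and Zscan4f in 77.5%. Zfp352 was identical with them in 46.1% to 48.5%. TGATTNAAT was found once in Zscan4c, starting 184 bases before the start, and once in Zscan4f, 161 bases before it. These letters were in 236 of 32851 mouse promoters of the same length (0.718%). TATAAA stood 54, 65 and 31 bases before the annotated start of Zscan4c, Zscan4d and Zscan4f, and 4473 promoters (13.6%) held it. Zfp352 held neither of these motifs but 9 copies of ACAACACAC, which 89 promoters (0.271%) held at least once. These matches describe the letters in the window and say nothing about binding in these embryos.

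The deposited values are read counts scaled by one size factor per library, without regard to transcript length. Whole reads could be recovered from them, between 836011 and 8551674 per library (median 4632053). Of these, 54.0% to 89.3% lay on CT010467.1 and Gm42418, a pair of overlapping genes in the ribosomal RNA repeat, which left 318177 to 2867034 reads for all other genes. The ratio of Gm42418 to CT010467.1 did not overlap between the groups in 2-cell embryos (2.34 to 4.03 in control, 1.58 to 1.77 in light), 8-cell embryos (2.01 to 2.34 and 1.52 to 1.71) and morulae (2.34 to 4.14 and 1.49 to 1.67). In 4-cell embryos the ranges overlapped narrowly (1.61 to 4.55 in control and 1.43 to 1.63 in light). A difference between library sets and the exposure to light cannot be told apart in comparisons of light with control at these stages. The 6 genes together had 294 to 547 reads in a control 2-cell library and 134 to 668 in a light one, against 0 to 15 in a control 4-cell library. In this sequencing of cells, fewer RNA molecules in a cell and a smaller share of them in the library cannot be told apart.

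All 6 genes had reads in every control 2-cell library, and 4 of them in every light 2-cell library. Zscan4d had 26.2, 75.4 and 187 (lowest, median and highest deposited value) in the 7 control 2-cell libraries and 2.48, 79.0 and 419 in the 6 light ones. Zscan4c had 13.5, 25.5 and 104 in control and 0, 23.1 and 115 in light. Zscan4f had 4.76, 32.2 and 62.5 in control and 0, 14.0 and 63.4 in light. For each of these copies the range of the light libraries reached below and above that of the control libraries. Zscan4c and Zscan4f were without a read in the same library, light 2-cell library 12, which was the deepest of all 67 outside the 2 ribosomal RNA genes. Zfp352 had 71.7, 118 and 204 in control 2-cell libraries and 26.6, 44.3 and 364 in light ones. Here 4 of the 6 light libraries lay below all control libraries and the other 2 above all of them. Tcstv1 had 27.4, 39.1 and 88.5 in control and 6.24, 16.0 and 45.2 in light. Tcstv3 had 19.8, 37.8 and 66.9 in control and 6.31, 16.0 and 117 in light. For both Tcstv genes 4 of the 6 light libraries lay below the lowest control library.

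**Figure D1:**
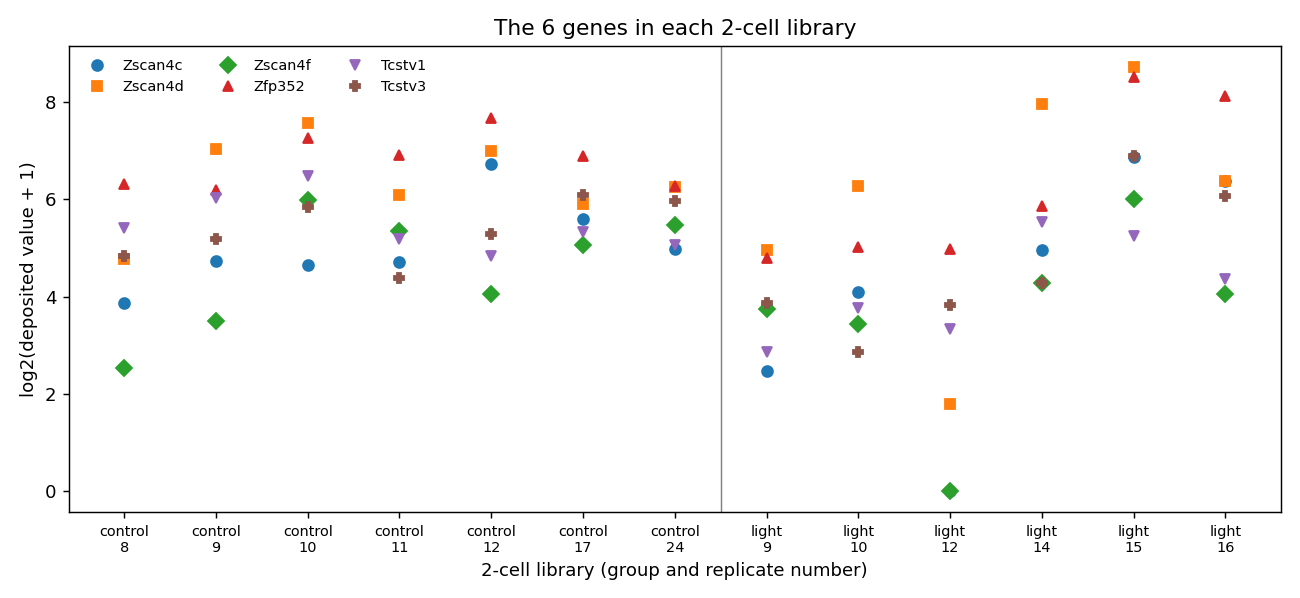
The 6 genes in each of the 13 2-cell libraries, on the log2 scale of the deposited value plus 1. Each column is 1 library with its replicate number, left of the line control and right of it light. Light library 12 had no read of Zscan4c or Zscan4f, whose points coincide at 0, and light library 15 had the highest value of all 13 libraries for Zscan4c, Zscan4d, Zscan4f, Zfp352 and Tcstv3.

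Levels were compared between genes after division by the exon length in kb. In control 2-cell libraries the median deposited value per kb was 51.9 for Zfp352, 48.6 for Tcstv3, 33.2 for Zscan4d, 28.0 for Tcstv1, 16.4 for Zscan4f and 11.2 for Zscan4c. The ranges of each pair of neighbours in this order overlapped, for example 31.5 to 89.4 for Zfp352 and 25.4 to 85.9 for Tcstv3. The range of Zfp352 lay above the median of Zscan4c and of Zscan4f. Stretches of sequence shared between copies leave the values of Zscan4c and Zscan4f the least certain.

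Light was compared with control at the 2-cell stage by limma on log2 of the value plus 1, for the 18532 genes that exceeded a value of 1 in 3 or more of these libraries. A gene was called when its adjusted p (Benjamini-Hochberg) was under 0.05 and its fold change at least 2. All 6 genes were tested and none was called, beside 10.5% of all genes tested. At an unadjusted p under 0.05 there was 1, Tcstv1, and edgeR and DESeq2 on the recovered reads called 0. Tcstv1 had a log2 fold change of -1.29 (SE 0.55, unadjusted p = 0.0252, adjusted p = 0.129 from limma). For Zscan4f it was -0.98 (SE 0.78), for Zscan4c -0.90 (SE 0.79), for Tcstv3 -0.73 (SE 0.59), for Zfp352 -0.57 (SE 0.52) and for Zscan4d -0.36 (SE 0.68), with adjusted p from limma between 0.462 and 0.788. Under edgeR and DESeq2 the fitted values of Zscan4c, Zscan4d and Zfp352 were above 0, and that of Zscan4d was 0.49 without light library 12. The median of the 6 was -0.82, beside 0.00025 over all genes tested. The interval of 2 SE on either side ran from -1.73 to 1.01 for Zscan4d, and a 2-fold difference in either direction lies within it.

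The RNA of maternal oocyte genes, stored before fertilization and degraded after it, moved with the groups at this stage. The summed value of 20 such genes was 5707 to 11760 in control 2-cell libraries and 2064 to 5611 in light ones, without overlap, and 8 of the 20 were called lower in light and none higher, beside 10.5% of all genes tested. Among them Bmp15, an oocyte growth factor, had a log2 fold change of -2.19 (SE 0.24, adjusted p = 1e-06 from limma), and Ooep, Rfpl4 and Oosp1 had -2.19, -1.95 and -1.62. With the log2 ratio of Gm42418 to CT010467.1 as a covariate Bmp15 kept its call and the other 3 lost theirs. edgeR did not call Ooep (-1.53, adjusted p = 0.0813). Of 9 genes of cumulus cells, which surround the oocyte, 6 exceeded 1 in some 2-cell library of each group, with summed values of 33.3 to 112 in control and 68.7 to 239 in light. Of the 5 tested, 1 was called higher in light (Tnfaip6, 2.65, SE 0.83, but adjusted p = 0.0511 from edgeR), and Lhcgr was at 0 in all 13 libraries. Of 9 sperm genes, 5 exceeded 1 in each group, with summed values of 134 to 397 and 129 to 361, and Prm2, Tnp2 and Spem1 were at 0 in all 13 libraries. Of 12 trophectoderm genes tested Tead4 was called higher (2.83, SE 0.90), and of 14 inner cell mass genes Dppa4, which is also an activator. The same 10.5% of all genes tested stands beside the calls of these marker lists. The calls of Tnfaip6 and Tead4 were each lost in 9 of 13 fits without 1 library and with the covariate. The part of these RNAs in the values of the 6 genes was not tested.

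Among known activators of the 2-cell programme, 3 of the 12 tested were called higher in light at the 2-cell stage and none lower. Of all genes tested in this comparison 10.5% were called. Dppa2 had 31.2, 72.6 and 251 in control and 264, 434 and 571 in light, without overlap, as for 4.15% of all genes tested (log2 fold change 2.15, SE 0.42, adjusted p = 0.00101 from limma). Its partner Dppa4 had 37.9, 129 and 294 in control and 229, 457 and 701 in light (1.84, SE 0.39, adjusted p = 0.00221 from limma), with an overlap between the groups. Trp53, which encodes the tumour suppressor p53, had a log2 fold change of 2.16 (SE 0.55, adjusted p = 0.0102 from limma). With the ratio as a covariate, a fit that called 165 of all genes, Dppa2 and Dppa4 kept their calls and Trp53 did not (0.70, adjusted p = 0.846). Nelfa, a subunit of the negative elongation factor, had 165, 228 and 487 in control and 167, 207 and 843 in light (0.14, SE 0.37). Nothing was analysed here under the symbol Dux. Duxf3, a symbol of the Dux family that may stand for the same gene, had 10 reads over the 7 control 2-cell libraries. It had 1 read over the 6 light ones. Of 31 known repressors, 3 were called higher in light and none lower, beside 10.5% of all genes tested. These were Trim28 (log2 fold change 1.57, SE 0.37), Sumo2 (1.95, SE 0.39) and Ehmt1 (1.54, SE 0.51), all 3 without a call when the ratio was a covariate and Ehmt1 also in 9 of 13 fits without 1 library, while Chaf1a and Chaf1b had 0.40 (SE 0.37) and 1.02 (SE 0.54) with adjusted p of 0.534 and 0.23 from limma.

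The 12 relatives of Zscan4 and Tcstv in the table gave 0 calls at the 2-cell stage by limma, edgeR and DESeq2, and 2 had an unadjusted p under 0.05. Of 38 other tested genes known for transient RNA at this stage, 4 were called higher in light and none lower, beside 10.5% of all genes tested. In the order of their change they were Tdpoz2 (log2 fold change 3.64, SE 0.77), Gm13119 (3.01, SE 0.90), the translation factor gene Eif1a (1.81, SE 0.43) and Tdpoz1 (1.75, SE 0.49). None of the 4 was called with the ratio as a covariate. Gm13119 was not called by edgeR (adjusted p = 0.0553) or in 4 of 13 fits without 1 library, and Tdpoz1 not in 1 fit over all libraries (adjusted p = 0.134) or without light library 14 (adjusted p = 0.0572). The median of the 38 was 0.51 and that of the 12 relatives -0.33. Gm13119 and the Tdpoz genes belong to multicopy families, so their reads may be split between copies.

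Across the 13 2-cell libraries the 6 genes were high or low together after the mean of each group had been subtracted. Pearson's r between pairs lay between 0.48 (Tcstv1 and Tcstv3) and 0.85 (Zscan4c and Zscan4d), with a median of 0.59 over the 15 pairs. The points share their library and its size factor, and the Zscan4 copies also share stretches of sequence. Light libraries 12, 10 and 9 had 2867034, 1950316 and 1849322 reads outside the 2 ribosomal RNA genes and summed values of 55.3, 153 and 93.5. Light libraries 14, 15 and 16 had 811744, 832526 and 318177 such reads and sums of 417, 1114.5 and 540. In control, library 8 had 2833011 and a sum of 191, library 9 1734891 and 337, and library 11 1268234 and 306. Control libraries 10, 12, 17 and 24 had 1194289, 1447432, 1501374 and 1361796 such reads and sums of 570, 514, 362 and 319. The part of depth in these values was not tested. The 5 other genes most like the mean of the 6 in these libraries were Gm38271 (r = 0.96), Pygb (0.95), Cstb (0.95), Tmem92 (0.95) and Gm2016 (0.95). Tmem92 and Gm2016 are among the other transient genes listed, Pygb encodes a glycogen phosphorylase and Cstb an inhibitor of cysteine proteases. Over all 67 libraries the 5 most alike were Gm29125 (r = 0.96), Gm43049, Gm6189, Skint6 and Gm9621 (each 0.94). Gm29125 had 31.3, 67.6 and 100 in control 2-cell libraries and at most 0.82 in control 4-cell libraries.

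From the 2-cell to the 4-cell stage all 6 genes fell, in both groups. In the 6 control 4-cell libraries Zscan4c and Zscan4f had no read, which against 3 reads over the group is a mean at least 116-fold and 89.6-fold lower than at the 2-cell stage. Zscan4d had 0, 0.33 and 0.98, Zfp352 had 0, 0.68 and 4.56, Tcstv1 had 0, 0 and 0.66, and Tcstv3 had 0, 0.33 and 5.75. No control 4-cell library reached the lowest control 2-cell library for any of the 6 genes, and 3621 of 17725 genes tested (20.4%) were likewise without overlap in either direction. The log2 fold change of the 4-cell against the 2-cell stage in control was -5.94 (SE 0.61) for Zscan4d, -5.84 (SE 0.60) for Zfp352, -5.35 (SE 0.59) for Tcstv1, -5.03 (SE 0.62) for Zscan4c, -4.60 (SE 0.65) for Tcstv3 and -4.56 (SE 0.67) for Zscan4f. The largest adjusted p among them was 9.93e-06 from limma. All 6 were called lower, beside 46.1% of all genes tested in either direction, 5719 of them lower and 2453 higher. Of the 6 genes only Zfp352 exceeded 1 in 3 control 4-cell libraries. The others passed the filter only through 2-cell libraries, where they were high. Because the 6 genes were chosen for a known burst at the 2-cell stage, their share of calls cannot be set against that of all genes. The median was -0.72 over all genes tested.

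In light embryos the fall was followed in 8 4-cell libraries. Zfp352 had 0, 0.37 and 14.2 (lowest, median and highest), Zscan4d 0, 0.61 and 9.81, Zscan4c 0, 0.21 and 5.40, and Zscan4f 0, 0 and 2.83. Tcstv1 had 0, 1.43 and 6.38, and Tcstv3 had 0, 0.21 and 124. Light 4-cell library 1 had the highest value of Zfp352, Zscan4d, Zscan4c, Tcstv1 and Tcstv3 in this group, and its Tcstv3 value exceeded all 13 2-cell libraries. Only for Zfp352 did the light 4-cell libraries all lie below the light 2-cell libraries, in a comparison where 2236 of 17258 genes tested had no overlap. The log2 fold changes ran from -3.03 (SE 0.68, Tcstv1) to -4.90 (SE 0.78, Zfp352), with Zscan4d at -4.75, Zscan4c at -3.56, Tcstv3 at -3.46 and Zscan4f at -3.23. All 6 were called lower by limma, beside 36.5% of all genes tested in either direction, 5010 of them lower and 1283 higher (4077 and 2004 after scaling by the median ratio over all genes), and the median over all genes was -0.56. For Tcstv3 edgeR gave -0.58 and DESeq2 -0.84, and neither called it (adjusted p = 0.712 and 0.73). Zscan4c, Zscan4f and Tcstv3 passed the filter in this comparison only through the 2-cell libraries.

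**Figure D2:**
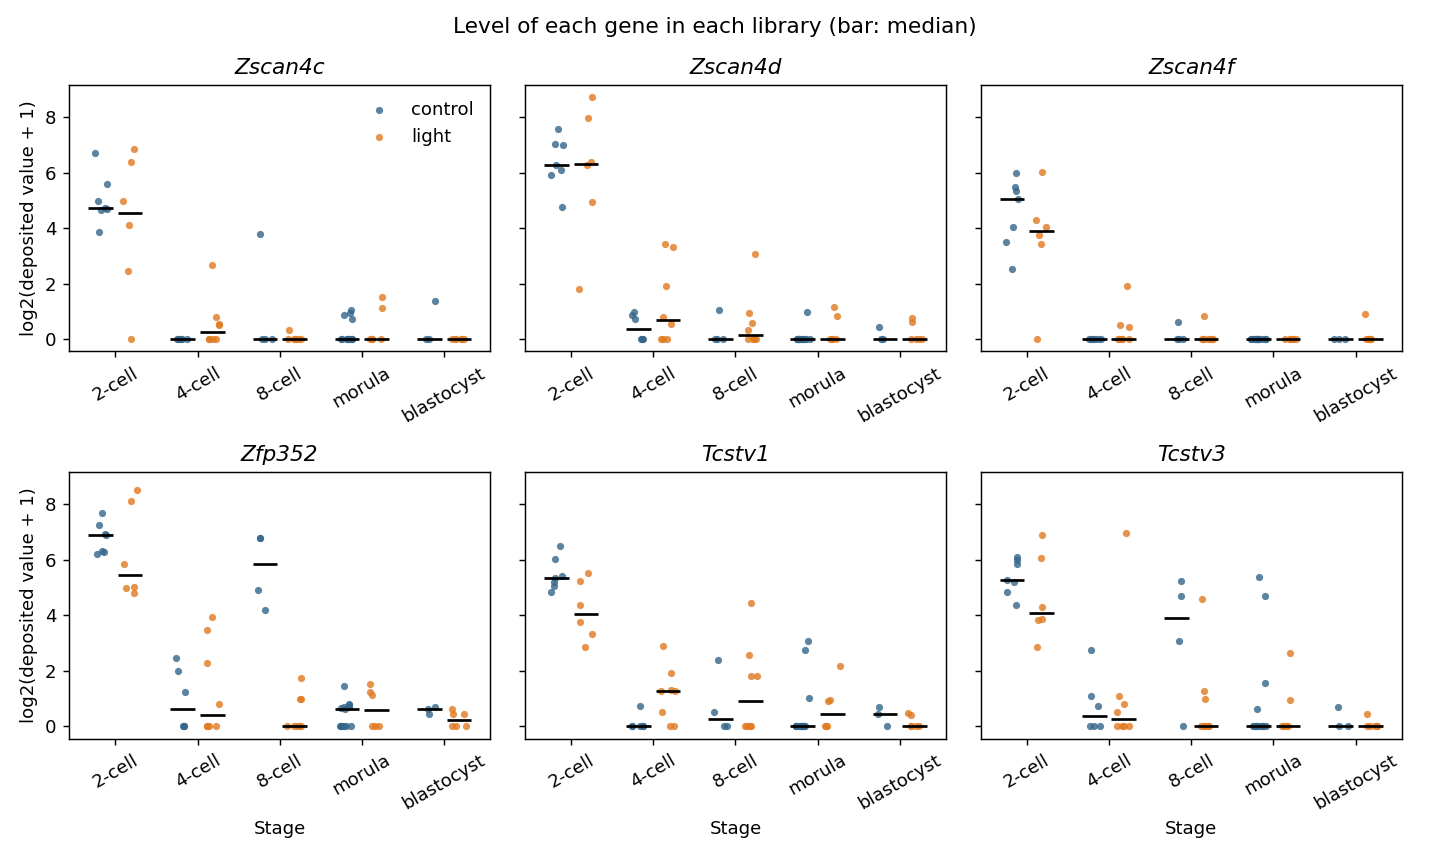
Level of each of the 6 genes in each of the 67 libraries, on the log2 scale of the deposited value plus 1, by stage and group. Points are libraries and bars medians. All 6 genes were high at the 2-cell stage, and Zfp352 was above 17 in the 4 control 8-cell libraries and at most 2.32 in the 8 light ones.

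Whether the fall differed between the groups was tested by an interaction term over the 4 groups. None of the 6 genes was called by limma, beside 3.07% of all genes tested. The difference (the light change minus the control change) was 2.32 for Tcstv1 (SE 0.86, unadjusted p = 0.0102, adjusted p = 0.126 from limma), the one gene with an unadjusted p under 0.05. edgeR and DESeq2 called Tcstv1, with differences of 4.72 and 5.02. Its control 4-cell libraries held 1 read in all and its light 4-cell libraries 24. For the other 5 genes the difference lay between 0.93 and 1.47, with SE between 1.00 and 1.18. Dppa2 and Dppa4 were the activators with a called difference (-1.90 and -1.88), but both calls were lost without the filter on low values (adjusted p = 0.0531 from limma) and in 9 and 13 of 27 fits without 1 library. The 12 relatives gave 0 calls of a difference by limma, edgeR and DESeq2 (1 at an unadjusted p under 0.05), and the 38 other transient genes 0 by limma (2 at an unadjusted p under 0.05), 2 by edgeR and 3 by DESeq2. Light was also compared with control within the 4-cell stage, where 4 of the 6 genes passed the filter. None was called, beside 1.45% of all genes tested. edgeR called 0, and DESeq2, which gave no adjusted p for Zscan4d, Tcstv1 and Tcstv3, called 0. Tcstv1 alone had an unadjusted p under 0.05, of 0.0452 (log2 fold change 1.03, SE 0.49, adjusted p = 0.275 from limma). Without light library 1 the values of Zfp352 and Tcstv3 turned from 0.36 and 0.41 to -0.013 and -0.42.

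The relatives fell with the 6 genes. All 11 tested were called lower at the 4-cell than at the 2-cell stage in control, with a median of -4.29, and all 11 in light, with a median of -3.20. Of all genes tested, 46.1% were called in control and 36.5% in light, 5719 and 5010 genes of them lower. Genes at 0 in 4-cell libraries passed the filter only through 2-cell libraries. In light edgeR called 9 of them and DESeq2 8. Zscan4a, Gm21761, Gm20767 and AF067061 changed most in control (-5.73, -5.62, -5.35 and -4.75), and Zscan4a, Zscan4-ps1, Zscan4b and Gm20767 in light (-6.25, -4.04, -3.96 and -3.74). Of 38 other transient genes tested, 28 were called lower in control and 27 in light, beside the same shares of all genes. Eif1a was called higher in both, and Sp110 in light, both named after their values were seen. Usp17lc, Usp17lb, Gm4850 and Gm5662 changed most in control (-6.76, -6.55, -6.44 and -6.00), and Rfpl4b, Gm13078, Usp17lc and Gm8300 in light (-5.74, -5.47, -5.34 and -5.21). The Usp17l genes encode deubiquitinating enzymes. Oocyte genes were also lower at the 4-cell stage, 17 of 20 in control and all 20 in light, beside the same shares of all genes. Of 12 activators tested, 5 were called higher and 2 lower in control, beside 46.1% of all genes tested. In light 3 were called higher and 3 lower, beside 36.5% of all genes tested. In control Nfya fell by 3.28, and Dppa2, the nuclear receptor gene Nr5a2 and Dppa4 rose by 3.07, 2.32 and 1.85. In light Rarg, which encodes a retinoic acid receptor, rose by 1.36. Nfya, Gata2 and Nelfa were called lower by limma (-1.72, -1.68 and -1.33), but edgeR and DESeq2 called neither Nfya (-0.77 and -0.86) nor Gata2 (-2.60 and -2.90, adjusted p = 0.0972 and 0.0914). The call of Nfya was also lost in 9 of 14 fits without 1 library and that of Gata2 without light 2-cell library 15 or 16, and Nelfa was under 2-fold after scaling by the median ratio (-0.93).

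**Figure D3:**
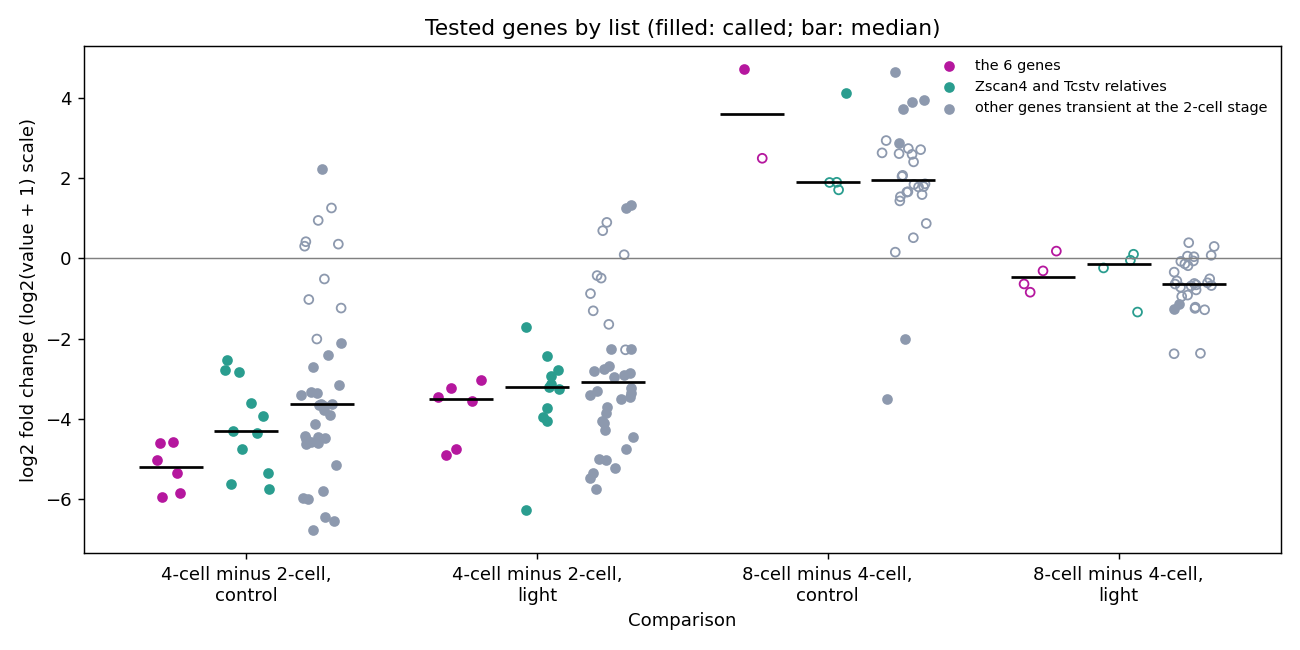
Log2 fold changes of tested genes between stages, for the 6 genes, 11 or fewer relatives of Zscan4 and Tcstv and up to 38 other transient genes. Each point is a gene, filled where called, and bars are medians. The 6 genes were all called lower at the 4-cell than at the 2-cell stage in both groups, and Zfp352 was called higher at the 8-cell than at the 4-cell stage in control.

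Zfp352 RNA was present again in control 8-cell embryos. The 4 control 8-cell libraries had 28.7, 109, 109 and 17.1, from 31, 205, 94 and 41 reads. The 8 light 8-cell libraries had 0, 0 and 2.32 (lowest, median and highest), and 5 of them no read. All 4 control libraries lay above all 8 light libraries, and 5.61% of all genes tested had no overlap in either direction. The log2 fold change of light against control was -5.19 (SE 0.76, adjusted p = 0.000136 from limma). Of the 3 of the 6 genes that passed the filter at this stage Zfp352 was the 1 called, beside 9.21% of all genes tested (819 higher and 457 lower, or 646 and 631 after scaling by the median ratio). Zfp352 passed the filter only through the control libraries, where it was high, so its share of calls cannot be set against that of all genes. The call was lost when the log2 ratio of Gm42418 to CT010467.1 was added as a covariate (-3.04, adjusted p = 0.795), a fit in which 2 of all genes were called.

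Within the control group Zfp352 rose by 4.71 on the log2 scale from the 4-cell to the 8-cell stage (SE 1.04, adjusted p = 0.00902 from limma) and fell by 5.22 to the morula stage (SE 0.67, adjusted p = 5.46e-06). The control 8-cell values overlapped neither the 4-cell values nor the morula values, whose highest was 1.76, beside 6.79% and 5.02% of all genes tested without overlap in these comparisons. In these comparisons 6.31% and 14.3% of all genes were called. The median of all genes was -0.56 for the first as deposited (153 higher, 694 lower) and 0.05 after scaling by the median ratio (200 higher, 72 lower), under which Zfp352 rose by 5.19 (adjusted p = 0.00529 from limma). In light the change from the 4-cell to the 8-cell stage was -0.84 (SE 0.58, adjusted p = 0.356 from limma). None of the 4 genes tested there was called, beside 10.6% of all genes, and none had an unadjusted p under 0.05 or was called by edgeR or DESeq2. The difference between the groups in this step was -5.55 (SE 1.08, adjusted p = 0.00251 from limma), beside 3.8% of all genes called. For the 8-cell against the 2-cell stage it was -4.62 (SE 0.88, adjusted p = 0.00341), beside 1.99% of all genes called. Both differences were tested after the values had been seen, and every comparison of the 8-cell stage rests on the same 4 control libraries. In the control step to the morula stage Zfp352 passed the filter only through these libraries, where it was high.

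**Figure D4:**
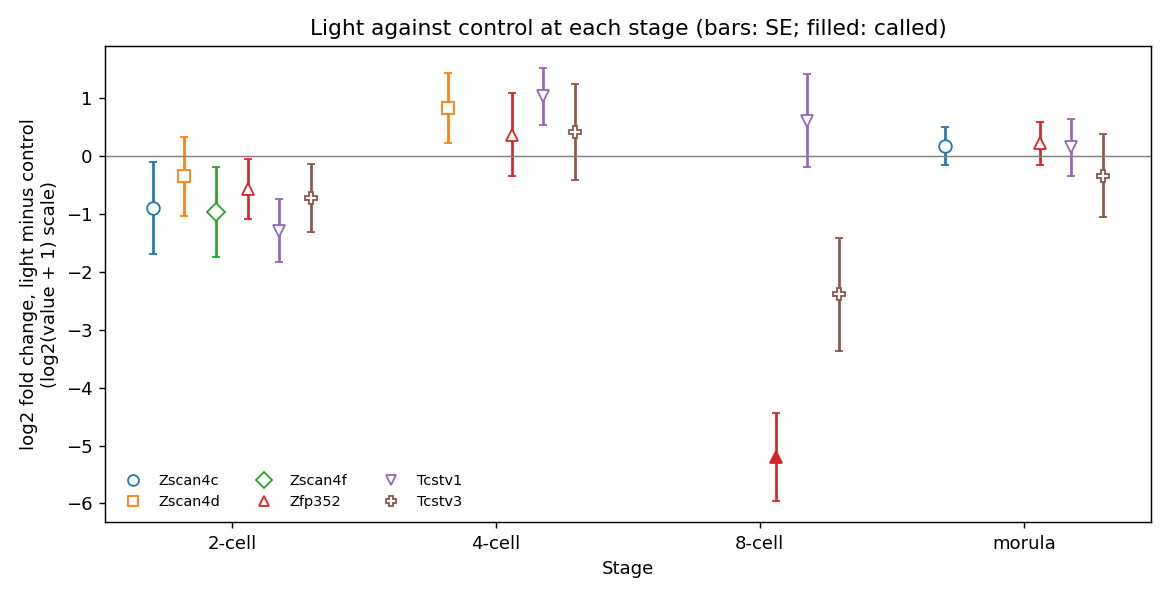
Log2 fold change of light against control for each of the 6 genes that passed the filter at a stage, with its SE. Filled symbols mark calls. Zfp352 at the 8-cell stage, at -5.19, was the 1 call, and no gene passed the filter at the blastocyst stage.

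Tcstv3 also had reads in control 8-cell libraries, with values of 25.0, 36.2, 0 and 7.51, and in light ones of 0, 0 and 22.8. The groups overlapped, and the log2 fold change of -2.39 was not called (SE 0.97, unadjusted p = 0.021, adjusted p = 0.119 from limma). It was called without control library 3 (-3.48, adjusted p = 0.0289), the one at 0, and without light library 8 (-2.92, adjusted p = 0.0253), the one at 22.8. In control its change from the 4-cell to the 8-cell stage was 2.49 (SE 1.04, adjusted p = 0.155 from limma), and to the morula stage -2.31 (SE 1.02, adjusted p = 0.137). Tcstv1 had 0, 4.26, 0 and 0.42 in control and 0, 1.25 and 20.5 in light 8-cell libraries (0.60, SE 0.81). The 3 Zscan4 copies were nearly silent at this stage. Zscan4c had 12.8 from 24 reads in control library 2 and no read in the other 3 control libraries, Zscan4d had at most 1.06 in control and 7.36 in light, and Zscan4f at most 0.53 and 0.77.

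Some other genes of the 2-cell stage were also called in light against control at the 8-cell stage by limma, and with the ratio of Gm42418 to CT010467.1 as a covariate every named gene of the lists lost its call. Of 5 relatives tested, 1 was called lower in light, beside 9.21% of all genes tested, and all 5 had an unadjusted p under 0.05. The called gene was Gm20767, with a log2 fold change of -3.80 (SE 0.79). Gm20767 had 4.63, 15.6 and 119 (lowest, median and highest) in the 4 control 8-cell libraries and 0, 0.13 and 1.90 in the 8 light ones. Of 29 other transient genes tested, 5 were called lower and 2 higher in light, beside 9.21% of all genes tested, and the median of the 29 was -1.76, beside 0.16 over all genes. The table holds 12 relatives and 40 other transient genes, and the rest did not pass the filter. A gene near 0 in light passes it only through control libraries where it is high. This median and the p-values of the relatives therefore depend in part on the filter. Spz1, Gm4850 and Gm2016 were called lower (-3.87, -3.30 and -3.08) and D5Ertd577e higher (3.08, but adjusted p = 0.0551 from edgeR). Gm2016 was not called by edgeR (-1.83, adjusted p = 0.442), by DESeq2 (-1.97, adjusted p = 0.409) or in 10 of 12 fits without 1 library, and Gm4850 not without control library 1 (adjusted p = 0.0509) or 2 (adjusted p = 0.123). Spz1 had 24.2, 73.8 and 126 in control and 0, 5.09 and 13.5 in light, without overlap, as for 5.61% of all genes tested. Among 11 activators tested Nelfa was called lower (-1.67, SE 0.32) and Tbx3 higher (2.62, SE 0.47), and Dppa2 and Dppa4 were not called (0.66 and 0.31). Among 31 repressors E2f6, Mga and Sumo2 were called higher and the histone demethylase gene Kdm1a lower (-1.47, SE 0.43). Beside the calls of activators and repressors stand 9.21% of all genes tested. The call of Mga was lost in 9 of 12 fits without 1 library, that of Kdm1a without control library 1 (-1.32) or 4 (-1.36), and Sumo2 was under 2-fold without either of these and by edgeR (0.96) and DESeq2 (0.88). In control embryos 5 of 28 other transient genes tested were called higher at the 8-cell than at the 4-cell stage and 2 lower. In this step 6.31% of all genes tested were called. The median of the 28 was 1.95, which also depends in part on the filter, beside -0.56 over all genes as deposited. Gm4850 changed by 4.65, and Spz1 (3.94) lost its call without control 8-cell library 2 or 3 (adjusted p = 0.0578 and 0.0584). Usp17lb, Gm2016 and Gm2075 lost theirs in 8 of 10, 4 of 10 and 5 of 7 fits without 1 library. D5Ertd577e and Eif1a, called lower, were not called after either rescaling, by edgeR or by DESeq2. In light embryos the same holds for D5Ertd577e and Eif1a, the 2 of 29 called, both lower, beside 10.6% of all genes tested. The median of the 29 there was -0.64. Of the relatives Gm20767 rose by 4.12 in control (SE 0.97), 1 of 4 tested, beside 6.31% of all genes tested. These genes of the stage steps were named after their values were seen. The groups of 8-cell libraries also differed in other RNAs. The summed oocyte genes had 239 to 448 in control and 105 to 218 in light, without overlap, although limma and edgeR called none of the 18 tested, DESeq2 called 7, and 7 had an unadjusted p under 0.05. Of 10 trophectoderm genes tested Lrp2, Hand1, Krt8 and Krt18 were called higher in light and none lower, with summed values of 144 to 311 in control and 178 to 688 in light, and Cdx2, Krt8, Elf5 and Dppa1 at 0 in all control libraries. The call of Krt18 was lost in 6 of 12 fits without 1 library. Of 10 inner cell mass genes tested Gata6, Tdgf1 and Pou5f1 were called higher in light and none lower, with summed values of 400 to 840 and 648 to 1491, which overlapped. The call of Tdgf1 was lost in 10 of 12 fits without 1 library. Beside the limma calls of these marker lists stand 9.21% of all genes tested. The part of these differences in the values of Zfp352 was not tested.

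At the morula and blastocyst stages the 6 genes were at or near 0 in most libraries. Zfp352 had at most 1.76 in 13 control and 1.87 in 6 light morula libraries. Tcstv3 had 40.6 and 25.1 in control morula libraries 10 and 16 and at most 1.93 in the other 11. Tcstv1 had 7.35 and 5.66 in control morula libraries 12 and 26 and at most 3.54 in light. The highest Tcstv3 value of a light morula was 5.24. Zscan4f had no read in any of the 19 morula libraries, Zscan4c had at most 1.87 and Zscan4d at most 1.26. None of the 4 genes tested at the morula stage was called in light against control, beside 1.18% of all genes tested, and none had an unadjusted p under 0.05 or was called by edgeR or DESeq2. At the blastocyst stage the 6 genes together had 3 or 4 reads in each control library and 1 to 4 in each light library, and none passed the filter.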

How the data were processed

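Libraries were sequenced after SMART-seq2 amplification of polyA RNA. The submitters' processing notes name HISAT2, HTSeq 0.9.1 and the mm9 build, without roles. The authors deposited 1 signal value per gene and library. Their methods describe RPKM, but no division by length was found: multiplied by 1 factor per library, 99.95% or more of its values were whole reads within 0.01, with 11 genes as exceptions.

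Groups were taken from the labels. Because the files hold scaled signal, limma 3.58.1 (lmFit, eBayes with trend, R 4.3.3) was run on log2 of the value plus 1, for genes that exceeded 1 in 3 or more of the compared libraries, with Benjamini-Hochberg adjustment over all genes tested. Fold changes are on that scale, which understates changes of low genes. A call needed a 2-fold or larger change with an adjusted p under 0.05. The scripts were tested on simulated data. Alternatives were other pseudocounts, filters and scalings, edgeR 4.0.16 and DESeq2 1.42.0 on the recovered reads, a single fit, the ratio of Gm42418 to CT010467.1 as a covariate, the replicate number as a block and leaving out each library. Gene models were matched by symbol to GENCODE M21 on GRCm38 (26329 of 26414 symbols), another build than the notes name, and used for lengths, positions and shared stretches. RefSeq promoters were matched by symbol.

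The 6 genes and all gene lists (relatives, other transient genes, activators, repressors and marker genes of oocyte, cumulus cells, sperm, trophectoderm and inner cell mass) were chosen with earlier results of these data known. Named were all 6 genes, of each list at most 4 called genes by size of change in each comparison of light with control and of the 4-cell with the 2-cell stage, Dux, Duxf3, Dppa2, Dppa4, Nelfa, Trp53, Trim28, Chaf1a and Chaf1b in any case, and the 5 genes most like the mean of the 6 by Pearson's r. Bounds from read counts cover counting error only, since amplified reads carry no molecular identifiers.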

Additional observations from a re-analysis of the deposited data

Results flagged for a closer look

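Sets of values of 1 gene in 1 group of 4 to 10 libraries were checked where some library had more than 3 reads. The gap of a library to the nearest other was taken on the log2 scale and divided by the range of the set. Of the 29 sets, 6 held a library for which this ratio exceeded Dixon's critical value. A near-silent group entered only through its high library, so this count cannot be set against chance. Light 4-cell library 1 was set apart for Tcstv3 (124.1) and Zscan4c (5.40). Light 8-cell library 8 was set apart for Tcstv3 (22.8) and Zscan4d (7.36). Control 8-cell library 2 was set apart for Zscan4c (12.8), and light morula library 12 for Tcstv3 (5.24). In each of these groups the other libraries were at or near 0. For Zfp352 the change between stages differed between light and control, by -5.55 from the 4-cell to the 8-cell stage and by -4.62 from the 2-cell to the 8-cell stage, both by an interaction term chosen after the values had been seen.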

How the results depend on the processing

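The fall of all 6 genes from the 2-cell to the 4-cell stage in control kept its direction and its calls under every alternative run. Of the 8-cell calls of Zfp352, the one of light against control was lost when the ratio of Gm42418 to CT010467.1 was a covariate (0 of the 6 genes called, Zfp352 -3.04, adjusted p = 0.795 from limma). The cause was not tested, and the ratio did not overlap between the groups. Leaving out 1 library gave 1 to 2 genes called there, with Zfp352 from -5.69 to -4.82. Between the 8-cell and the morula stage in control it gave 1 to 2 as well, Tcstv3 being called without control 8-cell library 3 (-3.39) or control morula library 10 (-2.68), and 1 fit over all libraries called 2. Between the 4-cell and the 8-cell stage in control DESeq2 called 2, with Tcstv3 at 4.61. From the 2-cell to the 4-cell stage in light edgeR and DESeq2 called 5 of 6, and for the difference between the groups in that step they called 1 each, Tcstv1.

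With that covariate at the 8-cell stage the called values of Mga, Hand1 and Tdgf1 turned to -0.93, -1.33 and -0.40 and the uncalled one of Dppa4 to -0.62, none of them called. Other directions that turned concern uncalled values. For light against control at the 2-cell stage edgeR and DESeq2 gave 0.046 and 0.17 for Zscan4c, 0.43 and 0.52 for Zscan4d, and 0.051 and 0.17 for Zfp352. Leaving out 1 library gave -0.90 to 0.49 for Zscan4d (0.49 without light 12) and -0.16 to 0.30 for Nelfa (below 0 without light 15 or light 16). At the 4-cell stage the covariate gave -0.45 for Zfp352 and DESeq2 -1.80 for Tcstv3, and leaving out 1 library gave -0.013 to 0.67 and -0.42 to 0.81, the lowest in both without light library 1. At the 8-cell stage the covariate gave -2.21 for Tcstv1, and leaving out 1 library gave -0.025 to 0.53 for Dppa4, below 0 without control library 3.

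Replicate numbers did not pair the libraries: deviations of libraries with the same number correlated between -0.087 and 0.069. With the number as a block, over the few shared numbers, 0 of the 6 genes were called from the 2-cell to the 4-cell stage in light, 0 between the 4-cell and 8-cell stages in control (Zfp352 4.55, adjusted p = 0.0534 from limma) and 0 between the 8-cell and morula stages in control. Nelfa at the 2-cell stage then had -0.32. The block could not be fitted for light against control at the 8-cell stage, from the 2-cell to the 4-cell stage in control or for the differences between steps, where fewer than 2 numbers were shared.

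Over the named genes, 861 of the values under other settings kept direction and side of the threshold, 159 lost and 4 gained a call and 14 turned. Counts over all genes under these settings, block aside, moved more: 165 to 3043 for light against control at the 2-cell stage, 48 to 754 at the 4-cell stage, 2 to 1440 at the 8-cell stage, 0 to 981 at the morula stage, 187 to 1950 between the 4-cell and 8-cell stages in control and 247 to 1649 in light, 1705 to 3592 between the 8-cell and morula stages in control, and 407 to 1674, 499 to 1135 and 314 to 1177 for the differences between steps. Without 1 library they were 1321 to 2199, 65 to 771, 999 to 1347 and 82 to 240 for light against control from the 2-cell to the morula stage, 340 to 1114 and 1253 to 1696 between the 4-cell and 8-cell stages in control and light, 1396 to 2199 between the 8-cell and morula stages in control and 314 to 965, 491 to 971 and 300 to 507 for the differences. With the block they were 0 for light against control at the 2-cell, 4-cell and morula stages, 0 from the 2-cell to the 4-cell stage in light, 114 and 177 between the 4-cell and 8-cell stages in control and light, and 0 between the 8-cell and morula stages in control. Scaling by the median ratio split the calls 161 higher and 223 lower between the 4-cell and 8-cell stages in light (94 and 1508 as deposited), 892 and 1545 between the 8-cell and morula stages in control (1024 and 1121), 138 and 139 for light against control at the morula stage (54 and 125), and 631 and 302 for the difference from the 2-cell to the 4-cell stage (332 and 295) and 391 and 241 for that from the 2-cell to the 8-cell stage (203 and 197). No direction of the 6 genes turned with the scaling. Depth limits the low end, where 1 read separates a listed 0 from a value near 1.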
